A study of Mus musculus with 6 samples.

Results

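The genes described are 10 members of the interleukin-1 (IL-1) family and the inflammasome, out of the 54446 genes counted in the macrophage RNA-seq. They were picked by name, with earlier results of these data known, and the choice used no threshold on a measured value. They comprise the ligands Il1a, Il1b and Il18, the inhibitors Il1rn and Il18bp, the decoy receptor Il1r2, the sensor Nlrp3, the caspases Casp1 and Casp4, and the pore-forming protein Gsdmd. The cells were bone marrow-derived macrophages (BMDMs) of BALB/c mice aged 6 to 8 weeks, grown for 7 days in medium with 20% L929-conditioned medium, a source of the growth factor CSF-1. M0 cells were left unpolarized, M1 cells received IFN-γ (20 ng/mL) with LPS (50 ng/mL), and M2 cells received IL4 (20 ng/mL), for 24 hours. Each state was sequenced once as a control, which by the labels received the solvent DMSO, and once with regorafenib, an oral multikinase inhibitor used against liver cancer, at 1 µM. In M1 and M2 it was given from 1 hour before polarization, and how long M0 cells were exposed is not given in the sources used here. The study asked how regorafenib changes the polarization of macrophages. With 1 library per condition, no ratio between a pair of libraries had a replicate check, and none has a p-value. All libraries come from cultured cells of healthy mice and not from a tumor, and whether the marrow of several mice was pooled is not given in the sources used here.

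IL-1α, IL-1β and IL-18 are cytokines that start inflammation. Il1b and Il18 encode inactive precursors, which caspase-1 cuts after an inflammasome, such as that built on NLRP3, has assembled, and gasdermin D then opens pores through which the mature cytokines leave the cell. In macrophages a first signal such as LPS raises the transcription of several members, and the pathway is held back by the receptor antagonist encoded by Il1rn, by the IL-18-binding protein and by the decoy receptor encoded by Il1r2. RNA-seq sees the transcripts alone, and neither the cutting nor the release of these proteins was measured. In bulk RNA, fewer cells with a transcript and less transcript per cell cannot be told apart.

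Il1a (chromosome 2, 129299610 to 129309972, minus strand) and Il1b (chromosome 2, 129364570 to 129371139, minus strand) lie next to each other in the GRCm38 genome. Il1rn lies elsewhere on the same chromosome (24336853 to 24351494, plus strand). Casp1 (5298517 to 5307265) and Casp4 (5308828 to 5336783) are neighbours on the plus strand of chromosome 9. The promoters below are those of members on which the results turn: the pair of ligands with the largest M1 to M0 ratio among the members, the inhibitor that was lower with regorafenib, and Casp4, which holds 2 matches in 1 window. Each runs from 250 bases before to 50 bases after an annotated start, 5′ to 3′ on the strand of the gene, from RefSeq on GRCm38.p6. Capitals mark matches, on either strand, to words read by NF-κB (GGG, any 2 bases, then TTTCC), by interferon regulatory factors (the ISRE word, TTTC, any 2 bases, then TTTC), by AP-1 (TGANTCA) or by CREB (TGACGTCA). These 4 words are described, and no match overlapped another.
Il1a, chr2:129309923-129310222: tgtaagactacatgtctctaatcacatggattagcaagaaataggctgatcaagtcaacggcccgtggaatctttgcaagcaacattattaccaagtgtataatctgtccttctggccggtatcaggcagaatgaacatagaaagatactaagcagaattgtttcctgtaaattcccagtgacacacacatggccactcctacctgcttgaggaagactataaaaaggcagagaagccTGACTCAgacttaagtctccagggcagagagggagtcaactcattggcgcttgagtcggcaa
Il1b, chr2:129371090-129371389: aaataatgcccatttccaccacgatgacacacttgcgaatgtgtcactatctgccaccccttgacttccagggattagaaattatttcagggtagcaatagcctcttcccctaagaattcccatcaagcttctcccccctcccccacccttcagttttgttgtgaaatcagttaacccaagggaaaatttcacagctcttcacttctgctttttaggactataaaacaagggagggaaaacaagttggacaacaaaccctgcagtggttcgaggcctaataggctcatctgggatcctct
Il1rn, first start, chr2:24336610-24336909: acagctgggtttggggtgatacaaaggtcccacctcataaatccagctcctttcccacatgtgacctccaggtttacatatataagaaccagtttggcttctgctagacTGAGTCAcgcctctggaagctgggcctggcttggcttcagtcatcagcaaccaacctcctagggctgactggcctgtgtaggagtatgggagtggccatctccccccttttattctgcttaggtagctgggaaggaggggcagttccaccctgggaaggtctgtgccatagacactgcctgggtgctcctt
Il1rn, a later start, chr2:24345121-24345420: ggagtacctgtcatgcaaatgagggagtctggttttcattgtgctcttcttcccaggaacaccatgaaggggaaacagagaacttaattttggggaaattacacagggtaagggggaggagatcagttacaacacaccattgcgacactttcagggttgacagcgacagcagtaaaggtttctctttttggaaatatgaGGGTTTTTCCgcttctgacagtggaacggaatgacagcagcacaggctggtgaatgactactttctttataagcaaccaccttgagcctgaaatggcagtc
Casp4, chr9:5308599-5308898: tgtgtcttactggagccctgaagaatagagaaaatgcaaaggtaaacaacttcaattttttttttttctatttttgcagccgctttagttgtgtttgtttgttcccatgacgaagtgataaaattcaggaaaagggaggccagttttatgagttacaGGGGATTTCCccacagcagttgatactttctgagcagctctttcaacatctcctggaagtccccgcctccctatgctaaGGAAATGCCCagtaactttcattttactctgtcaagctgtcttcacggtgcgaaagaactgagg

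Il1a held the AP-1 word TGACTCA from base -12 to base -6, counted from the start, and Il1b held none of the words in this window. At Il1rn the AP-1 word TGAGTCA lay from -141 to -135 at the first start, and the NF-κB word GGGTTTTTCC from -51 to -42 at the later start. Casp4 held the NF-κB words GGGGATTTCC, from -93 to -84, and GGAAATGCCC, from -14 to -5. Promoters of 9 of the 10 members were in the table, and those of Il18, Il18bp, Il1r2, Nlrp3 and Casp1 held none of the 4 words. The windows of Il18 and Il1r2 lay 10674 and 1395 bases from the start of the principal transcript in Gencode M21, so the sequence before that start was not searched for these genes. Of all 32851 mouse promoters of this length, 1.63% held the NF-κB word, 7.81% the AP-1 word, 3.44% the ISRE word and 1.79% the CREB word. These matches describe the letters in a window of 300 bases and say nothing about binding.

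The libraries held between 25359309 and 34898342 counts. Values are given as CPM, a gene's counts scaled to a common library size, after normalization with edgeR's TMM, and, where genes are compared with each other, per kilobase of exon as well (RPKM). The labels were checked with genes known to mark each state. Nos2, the inducible nitric oxide synthase of M1 cells, had 39 counts in M0 control and 410649 in M1 control, and Mrc1, the mannose receptor of M2 cells, had 614 counts in M0 control and 24237 in M2 control. All 7 macrophage markers were present, with a summed level from 4948 to 13567 CPM over the libraries. Neutrophils also make Il1b, Il1rn and Il1r2. Of 10 neutrophil markers, 5 exceeded 3 counts in a library, Ly6g and Retnlg had 0 counts throughout, and Elane had at most 2 counts. The summed level of the neutrophil list was 84.8 and 158 CPM in M0 (control and regorafenib), 157 and 110 in M1, and 89.0 and 133 in M2, most of it Mpo. S100a8 had 1804 counts in M1 control, 489 in M1 with regorafenib and 39 to 123 elsewhere. Camp had 108 and 91 counts in the M1 libraries and at most 1 elsewhere. Others of the list did not rise in M1. S100a9 had 3 and 1 counts in M1 and at most 11 elsewhere. Cxcr2 had 0 counts in M1 and 6 and 18 in M2, and Ngp and Ltf had at most 2 counts. The part of such cells in the values of Il1b, Il1rn and Il1r2 was not tested. Marker lists of dendritic cells summed to 0.394 to 4.52 CPM, of lymphocytes to at most 0.107 CPM and of mast cells or basophils to 0.

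Of the 10 members, 8 were at least 2-fold higher in M1 control than in M0 control, and 0 were at least 2-fold lower. The 8 were both IL-1 ligands, both inhibitors, the decoy receptor, Nlrp3 and both caspases, while Il18 and Gsdmd stayed within 2-fold. A gene was called when it differed at least 2-fold and had at least 10 counts in the higher library, and of the 14168 genes tested 37.1% were called in M1 control, 17.4% higher and 19.7% lower. Il1a and Il1b stood far above the others, 8217-fold and 7629-fold over M0.

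In control and regorafenib, Il1b, which encodes the IL-1β precursor, stood at 3.09 and 2.97 CPM in M0, 23594 and 24717 CPM in M1, and 2.68 and 3.003 CPM in M2. Il1a, which encodes IL-1α, stood at 1.33 and 1.27 CPM in M0, 10968 and 15965 CPM in M1, and 1.51 and 1.79 CPM in M2. Both were near silent outside M1, and the counting interval included 0 in each of the 4 comparisons among their M0 and M2 libraries. In M1 control Il1b ranked 3 and Il1a ranked 8 among all genes per kilobase, with 12372 and 5556 RPKM, and with regorafenib they ranked 3 and 7. Together the pair took 2.84% of all counts in M1 control (95% Wilson interval 2.83% to 2.84%) and 3.43% in M1 with regorafenib (3.43% to 3.44%). In the other libraries they took between 0.000438% and 0.000528%. Of the exon bases of Il1a, 11.2% overlap the antisense gene Gm14023, and 1.31% of those of Il1b overlap Il1bos. Which strand the counts come from is not stated, so reads of such overlaps cannot be assigned.

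**Figure D1:**
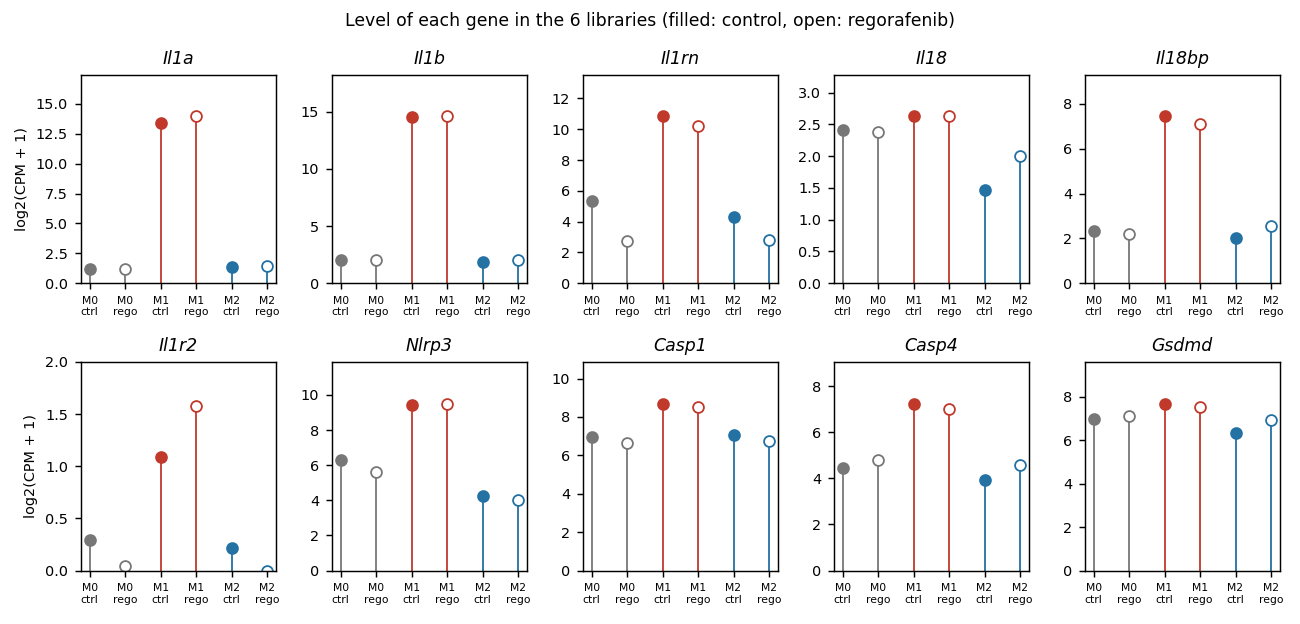
Level of each of the 10 genes in the 6 libraries as log2(CPM + 1), on an axis that starts at 0 and has its own range for each gene. Filled points are controls and open points regorafenib, with 1 library per point and no error bar. Il1a and Il1b are far higher in M1 (at least 10968 CPM) than elsewhere, Il1rn is low in M0 and M2 with regorafenib, and Il18 in M1 (5.19 CPM) lies close to M0.

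Il1rn, which encodes the antagonist of the IL-1 receptor, was already expressed without polarization. In control and regorafenib it stood at 39.9 and 5.55 CPM in M0, 1830.0 and 1194 CPM in M1, and 19.01 and 5.93 CPM in M2. The order of the 6 libraries was M1 control, M1 with regorafenib, M0 control, M2 control, and then both other regorafenib libraries, whose difference lay within counting error (log2 ratio 0.10 of M2 to M0, -0.22 to 0.41). M1 control was 45.8-fold over M0 control (log2 ratio 5.52, 5.44 to 5.60). Il18bp, which encodes the protein that binds and blocks IL-18, had 4.04 and 3.64 CPM in M0, 174 and 136 CPM in M1, and 3.07 and 4.93 CPM in M2. It was 43.0-fold higher in M1 control than in M0 control (log2 ratio 5.43, 5.17 to 5.70). The exons of Il18bp overlap the antisense gene Numa1 over 2.64% of their bases. Il18 itself, the cytokine that Il18bp binds, did not take part in the rise. It stood at 4.30 and 4.22 CPM in M0, 5.19 and 5.19 CPM in M1, and 1.75 and 3.003 CPM in M2. Its log2 ratio of M1 to M0 was 0.27 in control (-0.09 to 0.63) and 0.30 with regorafenib (-0.06 to 0.66), and with total counts in place of TMM both turned negative (-0.17 and -0.11).

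Il1r2, a receptor that captures IL-1 without passing on a signal, was scarce. It had 7 counts in M0 control, 1 in M0 with regorafenib, 29 and 48 in M1, and 6 and 0 in M2. Both M1 libraries were above the other 4. The log2 ratio of M1 to M0 was 2.30 in control (1.08 to 3.74) and 6.04 with regorafenib (3.49 to 11.37), the latter resting on a single count in M0.

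Nlrp3, the sensor of the best known inflammasome, stood at 76.2 and 47.9 CPM in M0, 692 and 728 CPM in M1, and 17.8 and 15.4 CPM in M2. Its order was M1, M0 and M2 in control and again with regorafenib, with a log2 ratio of M1 to M0 of 3.18 in control (3.12 to 3.24). Casp1, the protease that matures IL-1β and IL-18, had 121 and 99.0 CPM in M0, 413 and 366 CPM in M1, and 133 and 108 CPM in M2. Casp4, also called caspase-11 in the mouse, senses LPS inside the cell, and stood at 20.8 and 26.6 CPM in M0, 151 and 127 CPM in M1, and 14.2 and 22.8 CPM in M2. M1 control was 3.41-fold over M0 control for Casp1 (log2 ratio 1.77, 1.72 to 1.82) and 7.27-fold for Casp4 (2.86, 2.74 to 2.98). Gsdmd, the substrate of both caspases, had 125 and 136 CPM in M0, 204 and 184 CPM in M1, and 79.2 and 120 CPM in M2. Its levels spanned a narrower range than those of both caspases, and its M1 to M0 log2 ratio was 0.71 in control (0.65 to 0.77) and 0.44 with regorafenib (0.38 to 0.50).

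In cells with regorafenib the same 8 members were at least 2-fold higher in M1 than in M0, against 37.9% of 14159 genes called in either direction and 16.3% called higher. The log2 ratios of M1 to M0 with regorafenib were 13.61 for Il1a, 13.02 for Il1b, 7.75 for Il1rn, 5.22 for Il18bp, 3.93 for Nlrp3, 1.89 for Casp1 and 2.25 for Casp4. The median over the 10 members was 3.02 in control and 4.57 with regorafenib, beside -0.05 and -0.09 over all genes tested. Without Il1r2, left out after its few counts were seen, the median of the other 9 was 3.18 in control and 3.93 with regorafenib. Scaling with total counts in place of TMM lowered the median of all genes by 0.44 (control) and 0.41 (regorafenib) on the log2 scale. It changed the share of calls that were higher in M1 from 46.8% to 30.3% in control and from 43.1% to 27.7% with regorafenib. The number of members called was 8 under either scaling.

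A model with state and treatment as additive terms was fitted to the 6 libraries with edgeR's quasi-likelihood test and 2 residual degrees of freedom. It uses the difference between states in their response to regorafenib as the error. In M1 against M0, 8 of the 10 members rose at an adjusted p under 0.05, against 36.7% of 14110 genes that changed and 18.5% that rose. The edgeR adjusted p was 0.000189 for Il1a and Il1b, 0.000438 for Il18bp, 0.000604 for Nlrp3, 0.000959 for Casp1, 0.00130 for Il1rn and 0.00156 for Casp4. For Il1r2 it was 0.0321 in the edgeR test, but leaving out M0 with regorafenib gave an adjusted p of 0.0802 and leaving out M1 with regorafenib gave 0.0666. Gsdmd (log2 ratio 0.64, edgeR adjusted p = 0.0679) and Il18 (0.34, edgeR adjusted p = 0.442) did not pass.

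Fewer members differed in M2. Of the 9 members tested, 3 were called lower in M2 control than in M0 control and 0 were higher, against 12.3% of 13830 genes called in either direction and 7.61% called lower. These were Nlrp3 (log2 ratio -2.10, -2.23 to -1.97), Il18 (-1.29, -1.75 to -0.85) and Il1rn (-1.07, -1.21 to -0.94). Casp1 was slightly higher in M2, with a log2 ratio of 0.14 in control (0.08 to 0.20) and 0.12 with regorafenib (0.05 to 0.19). With regorafenib on both sides, Nlrp3 alone was called lower in M2 (-1.64, -1.79 to -1.48), against 9.59% of 13841 genes called and 5.18% called lower. Il1rn was at 0.10 there, Il18 at -0.49 (-0.90 to -0.09) and Il18bp at 0.44 (0.08 to 0.80). The median over the members was -0.55 in control and 0.01 with regorafenib, beside 0.01 and -0.03 over all genes tested. In the edgeR model 0 of the 10 members passed in M2 against M0, where 28 of 14110 genes passed (0.198%). Nlrp3 came nearest, with a log2 ratio of -1.88 and an edgeR adjusted p of 0.0616, and it passed with DESeq2 (adjusted p = 7.2e-09). At an unadjusted p under 0.05, edgeR gave 1309 genes and DESeq2 1149. The M0 control library is shared by the comparisons of M1 and M2 with it and by that of regorafenib in M0.

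**Figure D2:**
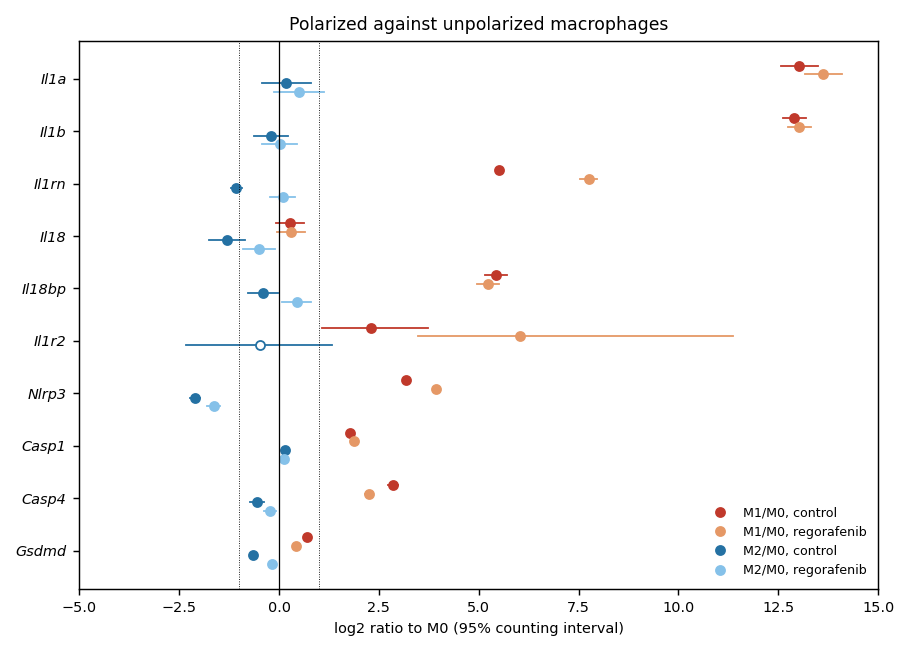
log2 ratio of M1 or M2 to M0 for each gene, in control (dark) and regorafenib (light), with the 95% interval of the counts as bars and dotted lines at a 2-fold difference. Il1a and Il1b lie near 13 in M1, Nlrp3 lies below the lower line in both M2 comparisons, and Il1rn in M1 has a larger ratio with regorafenib (7.75) than in control (5.52). The open point has fewer than 10 counts in either library, and Il1r2 has no point for M2 with regorafenib, where both libraries were at 1 count or fewer.

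Regorafenib was next compared with control within each state. Il1rn was the only member called in M0 and in M2, lower both times, and 0 of 10 members were called in M1. In M0, 1 of the 9 members tested was called, against 20.4% of 13964 genes called in either direction and 10.9% called lower. In M1, 5.22% of 13440 genes were called. In M2, 1 of 9 members was called, against 11.2% of 13813 genes in either direction and 5.07% lower. The share of members called was thus below that of all genes called in either direction in M0 and M1 and near it in M2.

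Il1rn went from 1227 to 183 counts in M0 with regorafenib, from 47283 to 28783 in M1 and from 694 to 166 in M2. It was 7.20-fold lower in M0 (log2 ratio -2.85, -3.08 to -2.62), 1.53-fold lower in M1 (-0.62, -0.64 to -0.59) and 3.20-fold lower in M2 (-1.68, -1.93 to -1.43). These 3 intervals do not overlap, and they cover counting error only. In the edgeR model over the 3 states Il1rn had a log2 ratio of -1.67 and an adjusted p of 0.329. The edgeR test called 0 of 14110 genes (0%), with 1637 genes at an unadjusted p under 0.05, and DESeq2 called 297 genes, Il1rn among them (adjusted p = 0.00366). Without either M1 library the regorafenib term of this model rests on M0 and M2 alone, the states where Il1rn fell most. Such fits therefore give no separate check of Il1rn.

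The ligands moved less. Il1a was 1.46-fold higher with regorafenib in M1 (log2 ratio 0.54, 0.53 to 0.55), where Il1b was at 0.07 (0.06 to 0.07). In M0 and M2, with 41 to 98 counts of each ligand per library, no difference was detectable at this depth. The log2 ratios in M0 were -0.07 for Il1a (-0.72 to 0.59) and -0.06 for Il1b (-0.48 to 0.37). In M2 they were 0.25 for Il1a (-0.34 to 0.83) and 0.16 for Il1b (-0.28 to 0.60). Il18 stood at -0.03 in M0 (-0.38 to 0.33) and 0.00 in M1 (-0.36 to 0.36). In M2 it was at 0.78 (0.29 to 1.27), where it went from 64 to 84 counts in a library of fewer reads. Its binding protein Il18bp had log2 ratios of -0.15 in M0 (-0.52 to 0.22), -0.36 in M1 (-0.42 to -0.29) and 0.69 in M2 (0.32 to 1.06). The decoy receptor Il1r2 went from 29 to 48 counts in M1 (log2 ratio 0.83, 0.13 to 1.55). The log2 ratio of its 1 count to 7 in M0 was -2.91, with an interval that included 0 (-8.40 to 0.05), and 6 against 0 counts in M2, at least 1.53-fold lower against the floor of 3 counts, had an interval that reached up to 0.15 and so included 0 as well.

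Among the inflammasome genes, Nlrp3 was 1.59-fold lower with regorafenib in M0 (log2 ratio -0.67, -0.76 to -0.58). It was at 0.07 in M1 (0.04 to 0.10) and -0.21 in M2 (-0.39 to -0.03). Casp1 was slightly lower in each state, with log2 ratios of -0.29, -0.18 and -0.31 in M0, M1 and M2. Casp4 was higher in M0 (0.35, 0.21 to 0.50) and M2 (0.68, 0.51 to 0.85) and lower in M1 (-0.26, -0.33 to -0.19). Gsdmd showed the same order, at 0.12 in M0, 0.60 in M2 and -0.15 in M1. None of these reached 2-fold, and in the edgeR model over the states the adjusted p of the 10 members lay between 0.329 and 0.933. The median log2 ratio of the members tested was -0.07 in each of M0 and M1 and 0.25 in M2, beside 0.00, -0.02 and -0.03 over all genes tested.

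**Figure D3:**
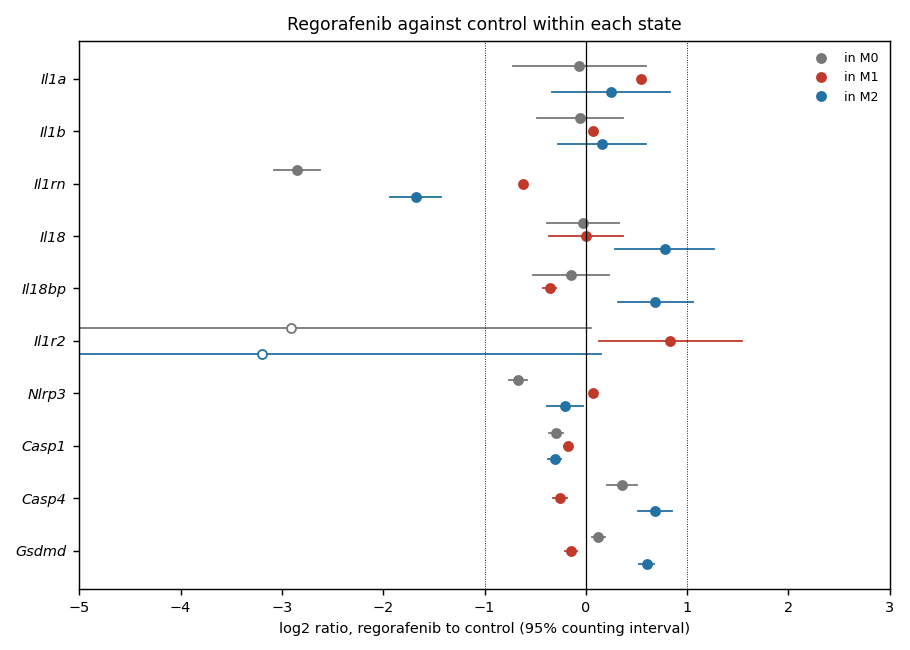
log2 ratio of regorafenib to control for each gene in M0 (grey), M1 (red) and M2 (blue), with the 95% interval of the counts as bars and dotted lines at a 2-fold difference. Il1rn lies left of the lower line in M0 (-2.85) and M2 (-1.68), and the other filled points lie within 2-fold. Open points (Il1r2 in M0 and M2) rest on fewer than 10 counts, that of M2 is drawn with 0.5 in place of its count of 0, and their bars run past the left edge.

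A ratio of a pair of transcripts within a library needs no scaling between libraries, and was taken per kilobase of exon. Il1b to Il1rn was 0.225 in M0 control (95% interval 0.180 to 0.277) and 1.55 with regorafenib (1.20 to 1.997). In M1 it was 37.4 in control (37.1 to 37.8) and 60.1 with regorafenib (59.4 to 60.8), and in M2 it was 0.410 (0.328 to 0.507) and 1.47 (1.12 to 1.92). Per kilobase, the antagonist transcript exceeded that of Il1b in M0 and M2 control, and Il1b exceeded the antagonist in the other 4 libraries. This rests on the merged exon lengths, 5535 bases for Il1rn with its several starts and 1907 for Il1b. In counts Il1rn still exceeded Il1b with regorafenib, by 183 against 98 in M0 and 166 against 84 in M2. The ratio was 6.92-fold higher with regorafenib in M0, 1.61-fold in M1 and 3.58-fold in M2. For Il1a to Il1rn the corresponding changes were 6.87-fold, 2.23-fold and 3.80-fold, from 0.0937 to 0.644 in M0, from 16.8 to 37.5 in M1 and from 0.222 to 0.845 in M2, and the ratio of 0.845 had an interval that included 1 (0.603 to 1.17).

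Il18 to Il18bp, the other pair of cytokine and inhibitor, was lowest in M1, where Il1b to Il1rn was highest. It was 3.12 in M0 control (2.43 to 4.03) and 3.40 with regorafenib (2.64 to 4.38). In M1 it was 0.0877 (0.0733 to 0.104) and 0.112 (0.0931 to 0.134), and in M2 it was 1.68 (1.21 to 2.30) and 1.79 (1.35 to 2.36). Within each state the intervals of control and regorafenib overlapped. Il1b to Il1a in control was 2.398 (M0), 2.23 (M1) and 1.84 (M2), with regorafenib it was 2.42, 1.60 and 1.74, and Il1b was the more abundant ligand in every library. Casp1 to Casp4 in the M0, M1 and M2 controls was 14.5, 6.78 and 23.2, and with regorafenib 9.22, 7.16 and 11.7. Casp1 exceeded Casp4 per kilobase in every library, and the excess was smaller with regorafenib than in control in M0 and M2, with intervals that did not overlap.

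**Figure D4:**
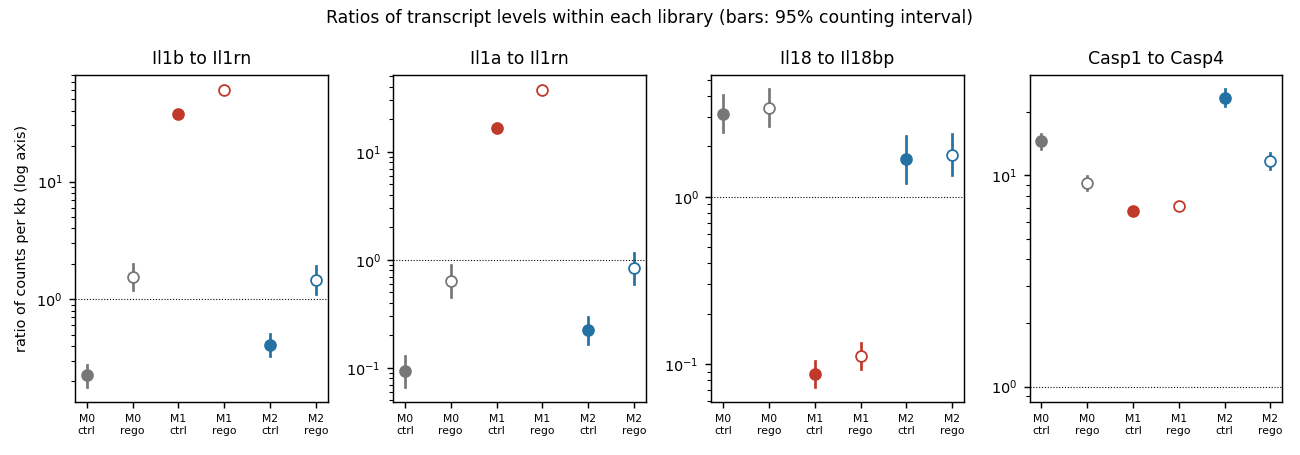
Ratio of counts per kilobase of exon for 4 pairs of genes within each library, on log axes, with the 95% interval of the counts as bars and a dotted line at a ratio of 1. Filled points are controls and open points regorafenib. Il1b to Il1rn crosses the line with regorafenib in M0 (0.225 to 1.55) and M2 (0.410 to 1.47), and Il18 to Il18bp lies below it in M1 only.

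The profile of each member over the 6 libraries, as log2(CPM + 1) centred on its mean, was compared with those of 11312 genes that had at least 100 counts in a library, by the root mean square difference. The nearest gene to Il1b was Il1a and the nearest to Il1a was Il1b, at 0.198 log2 units. Next came Nos2, at 0.388 from Il1a and 0.299 from Il1b, and Ptgs2, which encodes cyclooxygenase 2, at 0.651 and 0.704. The nearest to Il1rn were the chemokine gene Ccl3 (0.440), Slc1a2 (0.581) and the interferon-stimulated gene Isg15 (0.672). Ccl3 had 2769 and 727 counts in M0 control and regorafenib and 92724 and 136876 in M1. In the same order Isg15 had 1245, 173, 14512 and 13019, and Slc1a2 had 111, 39, 7737 and 9440. Il1rn went from 47283 to 28783 counts in M1, so Ccl3 and Slc1a2 moved the other way there with regorafenib. Casp1 lay nearest to Hspa5 (0.0690), Casp4 to Zc3h12c (0.118), Gsdmd to Gtpbp2 (0.103), Nlrp3 to the guanylate-binding protein gene Gbp9 (0.221), Il18 to Nfxl1 (0.111) and Il18bp to Timd4 (0.102). Il1r2 had too few counts to be placed. These distances describe 6 libraries, of which the M1 pair carries most of the range for the members placed other than Il18 and Gsdmd. For Il18 the M2 libraries, which were the lowest, carry most of it. For Gsdmd the M2 control lay about as far below the M0 control as the M1 control lay above it.

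Another 39 genes of the pathway were listed by name, and 35 of them were tested in M1 against M0 control. Of these, 14 were called higher and 6 lower, against 17.4% and 19.7% of all genes tested. The ligand genes Il33 and Il1f6 (IL-36α) had 0 counts in M0 control and 103 and 957 in M1 control, at least 40.8-fold and 379-fold higher against a floor of 3 counts per library. Il1f9 (IL-36γ) went from 3 to 1131 counts (log2 ratio 8.81, 7.26 to 11.09). Among the regulators, Irak3, an inhibitor of signaling below the IL-1 and Toll-like receptors, was higher (4.13, 4.02 to 4.25), as were Irak2 (2.06) and Myd88 (1.10), the adaptor that both receptor families use. Mefv, which encodes the pyrin sensor, was higher (5.60), and so was Ninj1 (2.02), whose protein ruptures the membrane of dying cells. Pycard, the ASC adaptor that links sensors to caspase-1, was lower in M1 (197 against 1384 counts, -2.56, -2.79 to -2.35), as were the receptor genes Il18rap (-4.56), Il1rl1 (2 against 60 counts, -4.66, -7.74 to -2.74) and Sigirr (-4.45). The others called higher were Il1r1 (log2 ratio 3.35), Il1rl2 (2.27), Nlrc4 (1.95), Traf6 (1.18), Naip2 (1.06) and Casp12 (3.06, 0.93 to 6.24, on 14 against 2 counts). P2rx7 (-1.08) and Gsdme (-1.03) were lower. In the edgeR model, where 36.7% of all genes changed and 18.5% rose, 13 of 35 rose and 9 fell in M1 against M0, Mefv (adjusted p = 0.00331) and Pycard (adjusted p = 0.0224) among them, and 0 of 35 passed in M2 or for regorafenib. The median log2 ratio of the 35 was 0.14. That of the 10 members was 3.02, but members and lists were chosen with earlier results of these data known.

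In M2 control, 4 of 31 were called higher than in M0 control and 3 lower, where 12.3% of all genes were called, 7.61% lower. Il1rl1, the receptor of IL-33, went from 60 to 659 counts (log2 ratio 3.21, 2.83 to 3.61), and Il1rl2, the receptor of the IL-36 ligands, from 115 to 836 (2.61, 2.33 to 2.91). Serpinb1a, which encodes an inhibitor of neutrophil proteases and inflammatory caspases, was at 2.10 and Il1r1, the signaling receptor of IL-1, at 1.63. The 3 lower genes were Nlrc4 (-1.22), Mefv (-1.95) and Gsdme (-1.46). With regorafenib on both sides, 8 of 34 were called higher and 6 lower in M1, where 37.9% of all genes were called, 16.3% higher. Higher were Il33 (74 against 0 counts, at least 33.7-fold), Il1f6 (266 against 0, at least 121-fold), Il1f9 (293 against 1, log2 ratio 8.65, 6.16 to 13.96), Mefv (4.61), Irak3 (3.51), Irak2 (1.58), Il1rl2 (1.34) and Ninj1 (1.30). Lower were Sigirr (1 against 136 counts, -6.64, -11.95 to -4.13), Il18rap (-2.10), P2rx7 (-1.88), Txnip (-1.35), Irak4 (-1.35) and Pycard (-1.03). In M2, 5 of 32 were higher and 1 lower with regorafenib on both sides, where 9.59% of all genes were called. These were Il1rl1 (4.59), Serpinb1a (3.02), Il18rap (2.18), Il1rl2 (1.85) and Naip1 (1.06, 0.02 to 2.16), and Gsdme (-1.19) was the lower gene.

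Regorafenib against control called 5 of 32 of these genes in M0, 4 of 33 in M1 and 5 of 31 in M2, beside 20.4%, 5.22% and 11.2% of all genes tested. Serpinb1a was lower in each state, from 55 to 10 counts in M0 (log2 ratio -2.56), 24 to 10 in M1 (-1.16) and 280 to 69 in M2 (-1.64). Il18rap, a subunit of the IL-18 receptor, went from 420 to 41 counts in M0 (-3.46, -3.96 to -2.99) and from 591 to 158 in M2 (-1.52, -1.78 to -1.26). Il1rl1 went from 60 to 6 in M0 (-3.42) and from 659 to 123 in M2 (-2.04, -2.33 to -1.76). In M1 the genes of IL-36α and IL-36γ were lower with regorafenib, Il1f6 from 957 to 266 counts (-1.75, -1.95 to -1.55) and Il1f9 from 1131 to 293 (-1.85, -2.04 to -1.66). Il1r1 was higher in M0, from 18 to 82 counts (2.09, 1.34 to 2.91), and lower in M1, from 154 to 48 (-1.58, -2.08 to -1.11). The summed level of 6 fibroblast markers, all above 3 counts in a library, was 3.19 and 10.2 CPM in M0 (control and regorafenib), 9.10 and 6.85 CPM in M1, and 3.56 and 5.76 CPM in M2, and its part in the values of Il1r1 was not tested. Casp12 was higher in M0 on 2 against 17 counts (2.99, 0.91 to 6.14). In M2, Nlrc4 (1.33) and Mefv (3.06, from 8 to 51 counts) were higher.

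**Figure D5:**
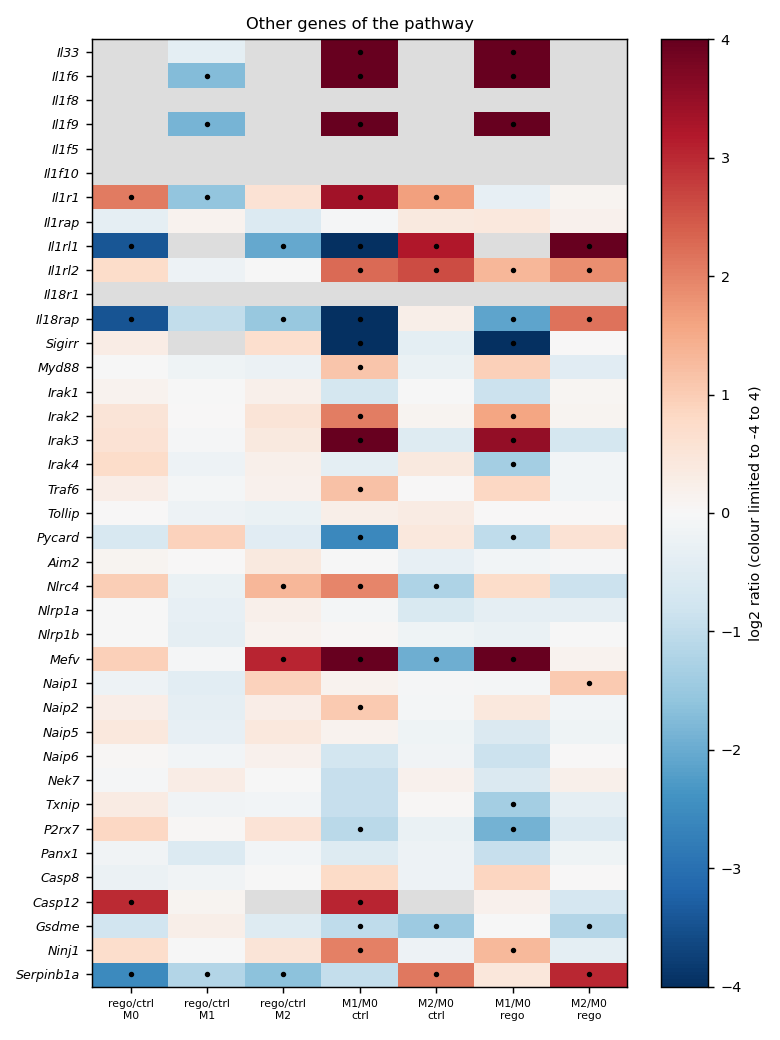
log2 ratio of 39 other genes of the pathway in the 7 comparisons, with colours limited to -4 and 4. Grey cells had fewer than 10 counts in both libraries, and a dot marks a ratio past 2-fold. Il33, Il1f6, Il1f9, Irak3 and Mefv are dark red in M1 against M0 control, Il18rap, Il1rl1 and Sigirr are dark blue there, and Serpinb1a is blue in all 3 comparisons of regorafenib with control.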

How the data were processed

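RNA of BMDMs was sequenced from TruSeq Stranded mRNA libraries, 1 per condition, grouped by the labels for treatment and subtype. The authors deposited raw counts per gene. By the methods and the submitters' processing notes, read quality was assessed by FastQC, adaptors were removed by cutadapt 2.4, and mapping and counting used STAR 2.7.2a on GRCm38 with Gencode M19. The strand column taken from STAR is not stated. The authors used the no-replicate mode of NOISeq, which simulates replicates and was not run here.

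Names, positions and exon lengths came from Gencode M21. Of 54446 gene IDs, 53229 matched with their version and 1180 without it. Promoter sequences came from RefSeq (GRCm38.p6). A further searched word and a further state marker are not reported here. The deposited counts (25359309 to 34898342 per library) were scaled with TMM (edgeR 4.0.16, R 4.3.3), with factors from 0.820 to 1.12. For the log2 ratio of a pair of libraries a count of 0 was replaced by 0.5. A gene was tested when its higher library had at least 10 counts and called past 2-fold, and 3 counts or fewer were taken as the floor. The 95% intervals are conditional exact binomial intervals (Wilson for a share of a library). They cover counting error only. They also treat reads as independent, although reads copied by PCR are not independent molecules. The additive edgeR model used genes kept by filterByExpr and a Benjamini-Hochberg adjusted p under 0.05, and DESeq2 1.42.0 was an alternative. The p-values of the additive model take as error the difference between states in their response to regorafenib. They do not measure the spread of repeated cultures, which 1 library per condition cannot give. The methods were tested on simulated data. Python 3.11.15, numpy 2.4.6, scipy 1.17.1 and pandas 2.3.3 were used.

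The text names all 10 members, the 39 other pathway genes by counts with values for those past 2-fold, and the genes nearest to each member. S100a8, S100a9, Camp, Cxcr2, Ngp, Ltf and Elane are markers from the list for neutrophils. The members and lists were chosen with earlier results of these data known.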

Additional observations from a re-analysis of the deposited data

Results flagged for a closer look

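Genes are listed here because regorafenib and control differed in opposite directions between states. For Il18bp, Nlrp3, Casp4 and Gsdmd the counting intervals lay on opposite sides of 0, and Il1r1 was past 2-fold both ways. The 39 other pathway genes were held to this stricter 2-fold rule, so genes such as Pycard and Nlrc4, whose intervals also lay on opposite sides of 0, are not listed. With 1 library per condition the difference between states was not tested for any of them. Il18bp had a log2 ratio of -0.36 in M1 and 0.69 in M2. Nlrp3 was at -0.67 in M0, 0.0735 in M1 and -0.21 in M2. Casp4 was at 0.35 in M0, -0.26 in M1 and 0.68 in M2. Gsdmd was at 0.12 in M0, -0.15 in M1 and 0.60 in M2. Il1r1 was at 2.09 in M0 and -1.58 in M1.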

How the results depend on the processing

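Of 210 recomputed log2 ratios of members (other size factors, total counts, 1 CPM added), 171 stayed within their counting interval, 39 did not, and 0 of the called ratios changed sign. The sign changed for 3 ratios that were not called, all with total counts: Il18 in M1 against M0 (-0.17 in control, -0.11 with regorafenib) and Il1b in M2 against M0 with regorafenib (-0.01). Members called for regorafenib went from 1 to 2 in M0, from 0 to 2 in M1 and from 1 to 5 in M2 at a threshold of 1.5-fold, which called 39.2%, 13.4% and 25.3% of all genes. In M1 against M0 the 8 became 9 in control at 1.5-fold (54.1% of all genes) and 7 at 4-fold with either treatment (18.7% in control, 18.4% with regorafenib). In M2 against M0 control the 3 became 4 at 1.5-fold (23.7%). At 4-fold members called for regorafenib went from 1 to 0 in M2 (2.45%), and in M2 against M0 from 3 to 1 in control (3%) and from 1 to 0 with regorafenib (2.54%). With no minimum count those for regorafenib went from 1 to 2 in M0 (31.4%) and in M2 (24.8%), the added member being Il1r2. In the edgeR model the members called went from 0 to 1 with DESeq2 and with no filter on low counts, both for M2 against M0 (Nlrp3, adjusted p = 7.2e-09 and 0.000188) and for regorafenib (Il1rn, adjusted p = 0.00366 and 0.0120). Leaving out a library leaves a lone library in its state. Without either M1 library, the terms for regorafenib and for M2 against M0 rest on M0 and M2 alone, so these fits are not separate checks. Members passing in fits without a library are not counted here. Over all genes, M2 against M0 had 28 calls with edgeR, 412 with DESeq2, 408 with no filter, 0 with the other factor (treatment) left out of the model and 77 to 294 with a library left out. For regorafenib these were 0, 297, 333, 0 (state left out) and 0 to 814. A leave-one-out fit assumes that a lone library varies like the others. The additive model compares regorafenib with control within states. Beyond this pairing by state, no paired analysis was possible with 1 library per condition.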
